A study of Mus musculus with 12 samples.

Results

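Resting airway macrophages (AMs) are the cells of wild-type (WT) and Scnn1b-transgene (Scnn1b-Tg) C57BL/6 mice that were kept in medium alone, and the question was which transcripts differed between the genotypes without a bacterial stimulus. They were chosen by their labels for treatment and make up 6 of the 12 libraries of the RNA sequencing series, 3 per genotype. Scnn1b-Tg mice carry extra copies of the gene for the beta subunit of the epithelial sodium channel under the club cell secretory protein promoter, which is active in airway epithelium and not in macrophages. The animals were 6 weeks old, cells of 3 to 4 animals formed a pool, and each pool was split into a medium well and a well with 100 ng/ml lipopolysaccharide (LPS) of P. aeruginosa for 12 h. The medium libraries came from WT pools 16, 17 and 18 and Scnn1b-Tg pools 17, 18 and 19. Pools WT 16, WT 17 and Tg 17 belonged to library batch 1 and pools WT 18, Tg 18 and Tg 19 to library batch 2. The labels describe adherent lavage cells, whereas the study's methods for sequencing describe sorted cells, so the isolation cannot be told from these sources. A resting value here is that of a cell cultured for 12 h without LPS, not of a freshly isolated cell.

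AMs live on the inner surface of the airways and alveoli, where they clear particles, surfactant lipid and dying cells while keeping inflammation low. They depend on the lipid-sensing nuclear receptor Pparg and sense bacteria through Toll-like receptors with the co-receptor Cd14, formyl peptide receptors and complement receptors. In Scnn1b-Tg lungs, increased sodium uptake dries the airway surface and mucus obstructs the airways.

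The 6 medium libraries held 48.2 to 57.4 M deposited counts and between 14918 and 16093 genes with at least 1 count. Levels are given as counts per M counts (CPM), and a group with at most 8 counts in every library, the worth of 3 reads, was taken as undetected, a floor of 0.139 to 0.166 CPM. AM markers were high in all 6, with a summed level of 4650 to 5156 CPM over the 10 listed genes in WT and 4706 to 5534 CPM in Scnn1b-Tg, including 112, 121 and 113 CPM for Siglecf in WT and 128, 103 and 124 CPM in Scnn1b-Tg. Scnn1b itself was near the floor in both genotypes, at 0.0895, 0.122 and 0.542 CPM in WT and 0.0856, 0.456 and 0.542 CPM in Scnn1b-Tg, so the transgene left no visible mark in these cells. Xist, expressed from the inactive X chromosome of females, was at 0 in the medium and the LPS library of pool Tg 19 and between 4.21 and 24.7 CPM in the other 10 libraries, although sorted animals of the study are described as female. The main counts are therefore also given without Tg 19. The other pools were not alike in Xist either. In medium, WT 16 and WT 17 were at 6.36 and 6.82 CPM, and WT 18, Tg 17 and Tg 18 at 22.4, 24.6 and 24.4 CPM. After LPS, Tg 17 was at 8.08 CPM. The cause of this split was not tested, and leaving out Tg 19 does not address it.

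In resting AMs, 46 of 13729 genes tested differed between the genotypes at an adjusted p of 0.05, which is 0.335% of them, with 23 higher and 23 lower in Scnn1b-Tg (0.168% in each direction). The higher genes were led by Chil4, a chitinase-like protein linked to type 2 immunity, and the lower genes included the interleukin-1 antagonist Il1rn, the LPS co-receptor Cd14, receptors for bacterial peptides and complement, and the antioxidant enzymes Hmox1 and Srxn1. Among the called genes, changes upwards were larger: the median log2 fold change was 1.28 for the 23 higher genes and -0.74 for the 23 lower genes, and 16 and 5 of them went past a log2 change of 1. These medians hold for genes chosen by a low p and not for all genes tested, whose median was 0.01. The part of expression level in this difference was not tested. The libraries of the genotypes did not overlap for any of the 46, against 18.4% of all genes tested that did not overlap. The sign was the same in both library batches for all 46. Both follow largely from choosing genes by a low p in these same libraries and are not separate evidence. At an unadjusted p of 0.05, 1042 genes were higher (7.59%) and 797 were lower (5.81%), together 13.4% of all genes tested. The number of calls depended on single libraries: it was 10, 21 and 8 without WT 16, WT 17 and WT 18, and 3, 32 and 5 without Tg 17, Tg 18 and Tg 19. The sign of none of the 46 changed under any of the 22 alternatives that were run, but DESeq2 on the same design called 501 genes, among them all of these 46 but Lrrc14b. DESeq2 counts within gene lists below are to be read beside that total. The medium and LPS libraries of a pool entered the edgeR fit as independent. With the pool as a random effect (limma voom), 32 genes were called and 16 of the 46 were lost, among them Chil4 (adjusted p = 0.148), 4930506C21Rik (0.11), Gm20498 (0.0848), Blnk (0.0731), Gpr84 (0.0681), Fpr2 (0.0673), Ccr7 (0.061) and C5ar1 (0.0593). Without the medium library of Tg 19, the calls kept from the 46 were Pkdcc, Mlph, Rasa4 and Il1rn, and without that of Tg 17 they were Pkdcc and Mlph. Without both libraries of Tg 19, 9 genes were called, 5 of them among the 46.

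**Figure D1:**
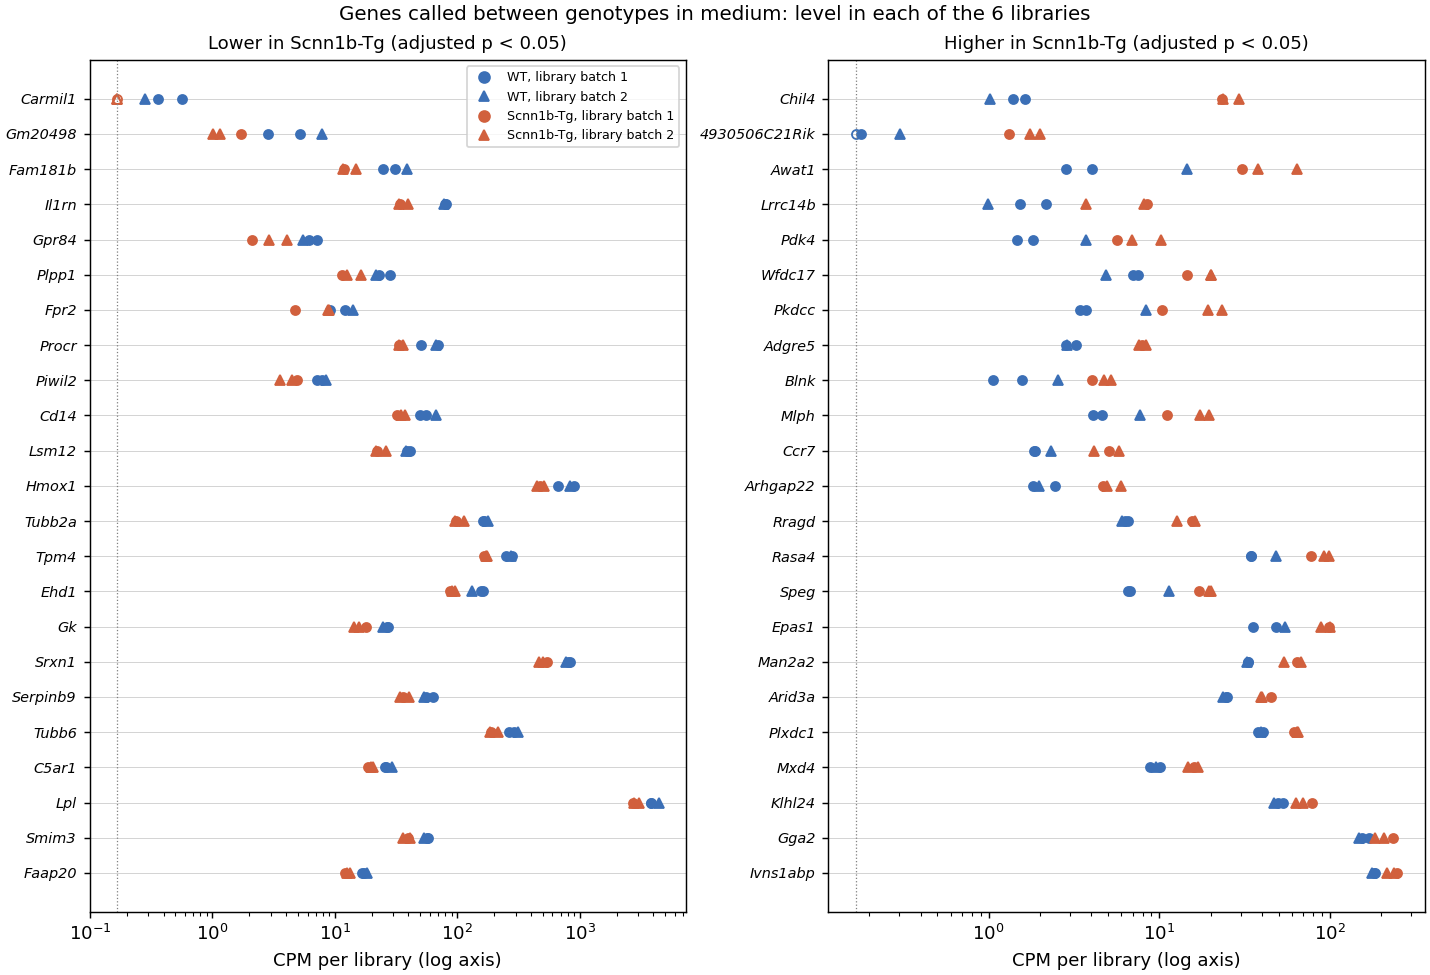
Level of each of the 46 called genes in each of the 6 medium libraries, as CPM on a log axis, with WT in blue and Scnn1b-Tg in orange, circles for library batch 1 and triangles for batch 2. Genes are ordered by the size of the log2 fold change, open symbols mark values under the highest floor (dotted line, 0.166 CPM), and the genotypes do not overlap for any gene.

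Il1rn encodes the secreted antagonist that occupies the interleukin-1 receptor without signalling. Its levels in WT were 80, 81.3 and 77.4 CPM. In Scnn1b-Tg they were 33.8, 39.7 and 33.7 CPM. The 3 Scnn1b-Tg libraries thus lay close together and far under all WT libraries, with a log2 fold change of -1.18 ± 0.12 (SE, adjusted p = 0.00639, edgeR quasi-likelihood test). Il1rn passed the threshold under 20 of the 22 alternatives, more than any other lower gene. The agonists that it opposes did not pass: Il1a was at 81.9, 66.9 and 76.1 CPM in WT and at 63.5, 70 and 68.5 CPM in Scnn1b-Tg, a log2 fold change of -0.18 ± 0.11 (SE, adjusted p = 0.516). Il1b was low in every resting library, at 3.15, 2.99 and 2.19 CPM in WT and 2.09, 3.02 and 1.98 CPM in Scnn1b-Tg (adjusted p = 0.714). Both cytokines overlapped between the genotypes. Of 14 interleukin-1 family and regulator genes tested, 1 was called. Il18bp, which binds and blocks interleukin-18, had a log2 fold change of 0.61 (adjusted p = 0.253) and Casp4, a sensor of intracellular LPS, of -0.36 (adjusted p = 0.275).

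Cd14, which hands LPS to the Tlr4 complex, was at 55.5, 49.3 and 67.4 CPM in WT and at 32.1, 37.3 and 34.9 CPM in Scnn1b-Tg. Its log2 fold change was -0.79 ± 0.09 (SE, adjusted p = 0.00975). Cd14 was the 1 called gene among 22 tested genes of Toll-like receptors and adaptors. Tlr2, a receptor for bacterial lipopeptides, was next at 614, 636 and 493 CPM in WT and 442, 371 and 333 CPM in Scnn1b-Tg. These libraries did not overlap, but Tlr2 missed the threshold (adjusted p = 0.0691). Ly86, the partner of a Tlr4-like receptor, had a log2 fold change of 0.57 (adjusted p = 0.149), so not all genes of the list pointed downwards, and 15 of the 22 had a fold change above 0.

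Among 17 tested chemoattractant receptors, 3 were called, all lower in Scnn1b-Tg. Fpr2, a formyl peptide receptor, was at 12.2, 9.19 and 14.1 CPM in WT and at 4.78, 8.92 and 8.87 CPM in Scnn1b-Tg (log2 fold change -0.90 ± 0.15 SE, adjusted p = 0.0449). The nearest WT and Scnn1b-Tg libraries almost touched. C5ar1, the receptor for the complement fragment C5a, was at 25.5, 26.4 and 29.4 CPM in WT and at 18.6, 20.7 and 19.7 CPM in Scnn1b-Tg (-0.54 ± 0.09 SE, adjusted p = 0.0449). Gpr84, a receptor for medium-chain fatty acids that rises in inflamed macrophages, was at 7.13, 6.19 and 5.55 CPM in WT and at 2.12, 4.09 and 2.91 CPM in Scnn1b-Tg (-1.13 ± 0.20 SE, adjusted p = 0.0461). Gpr84 lost its call with the older quasi-likelihood method of edgeR (adjusted p = 0.0545). Its exons, like those of Fpr2, overlap another gene, and counting ignored strand. The list as a whole did not share this direction. With these 3 included, its median log2 fold change was 0.04, against 0.01 over all genes tested. At an unadjusted p of 0.05, 6 members were higher and 4 lower, the 3 called genes among the 4. Together these were 58.8% of the list, against 13.4% of all genes.

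The antioxidant response is the set of detoxifying and glutathione genes that the transcription factor Nfe2l2 controls. Hmox1, which breaks down heme, was at 905, 666 and 839 CPM in WT and at 473, 511 and 451 CPM in Scnn1b-Tg, a log2 fold change of -0.74 ± 0.12 (SE, adjusted p = 0.042). Srxn1, the sulfiredoxin that restores oxidised peroxiredoxins, was at 837, 799 and 767 CPM in WT and at 542, 464 and 501 CPM in Scnn1b-Tg, a log2 fold change of -0.61 ± 0.08 (SE, adjusted p = 0.0198). These were the 2 called genes among 26 tested. The subunits of glutamate-cysteine ligase, the first enzyme of glutathione synthesis, just missed the threshold. Gclm was at 461, 418 and 467 CPM in WT and 278, 261 and 283 CPM in Scnn1b-Tg, and Gclc at 109, 106 and 92.1 CPM and 72.7, 69.6 and 71.2 CPM (adjusted p = 0.0524 for each). Over the list, 22 of 26 members had a fold change below 0, with a median log2 fold change of -0.21. At an unadjusted p of 0.05, 12 were lower and 0 higher (46.2%, against 13.4% of all genes in either direction). The median difference was -0.16 within library batch 1 and -0.28 within batch 2. Nfe2l2 itself did not pass the test, at 307, 317 and 311 CPM in WT and 318, 288 and 284 CPM in Scnn1b-Tg. Without Tg 19 the list median was -0.24, and neither gene passed in that fit.

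**Figure D2:**
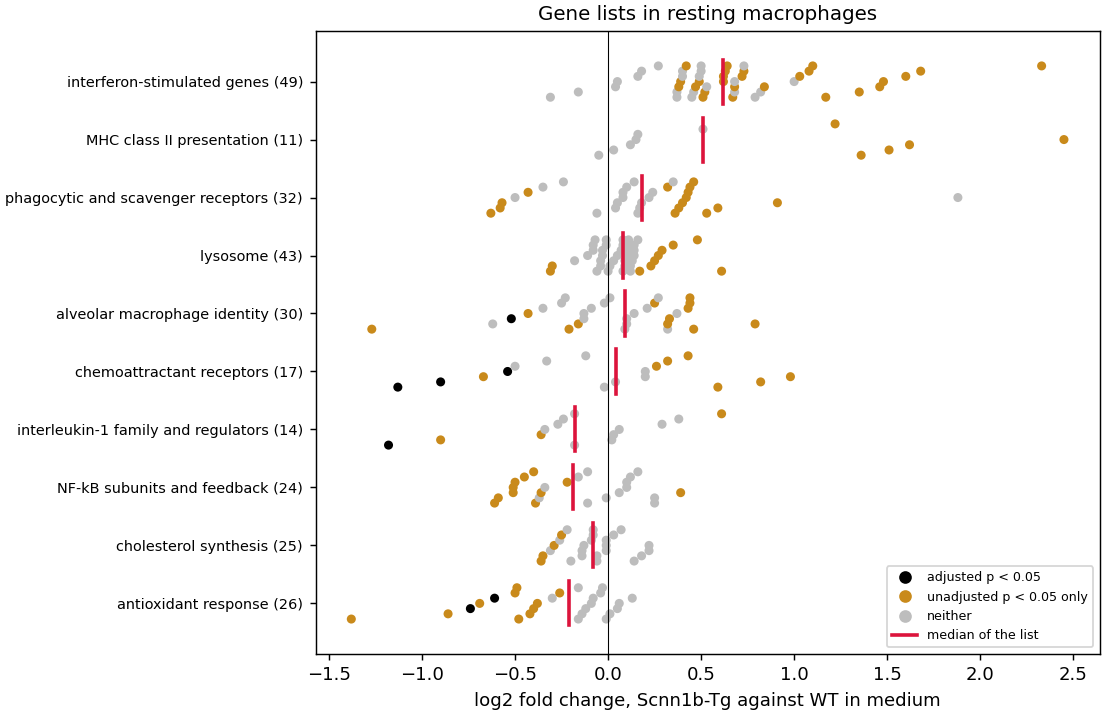
Log2 fold change of Scnn1b-Tg against WT in medium for each tested member of 10 gene lists, with the number tested in parentheses, black points for an adjusted p under 0.05, ochre points for an unadjusted p under 0.05 only, and a red bar at each list's median. The interferon-stimulated list lies to the right with no black point, and the antioxidant list lies to the left with 2 black points.

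Promoter sequences of 3 lower genes are shown as examples of the motif counts that follow, with the motif in capitals. Whether these genes vary together was not tested. The windows run from 250 bases before to 50 after a transcription start, are from RefSeq on the build GRCm38.p6 and are read 5′ to 3′. The antioxidant response element TGACNNNGC and the AP-1 site TGANTCA were searched on both strands, and the letters of both can overlap. Windows were matched for 13 of the 23 lower genes, of which 4 (30.8%) held TGACNNNGC and 3 (23.1%) TGANTCA, against 14% and 8.97% of all 27025 genes with a window. The 16 higher genes with a window held TGACNNNGC in nearly the same share, 4 of 16 (25%), and 0 of them held TGANTCA. Of the 21 matched genes of the antioxidant list, 10 (47.6%) held TGACNNNGC. The Srxn1 window and the most upstream of 3 Il1rn windows with a motif match show TGANTCA. The other 2 Il1rn windows held no TGANTCA but matches to the NF-kB and STAT motifs. The window of Procr, the protein C receptor, shows TGACNNNGC, starting at position -154 from the transcription start.

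Srxn1 promoter (chr2:152105274-152105573, plus strand): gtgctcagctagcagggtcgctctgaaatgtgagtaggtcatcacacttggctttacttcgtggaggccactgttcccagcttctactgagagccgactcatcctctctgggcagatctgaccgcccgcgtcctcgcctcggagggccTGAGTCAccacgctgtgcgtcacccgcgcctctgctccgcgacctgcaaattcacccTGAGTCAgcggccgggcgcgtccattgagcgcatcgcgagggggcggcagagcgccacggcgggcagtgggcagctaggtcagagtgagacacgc

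Il1rn promoter (chr2:24336610-24336909, plus strand): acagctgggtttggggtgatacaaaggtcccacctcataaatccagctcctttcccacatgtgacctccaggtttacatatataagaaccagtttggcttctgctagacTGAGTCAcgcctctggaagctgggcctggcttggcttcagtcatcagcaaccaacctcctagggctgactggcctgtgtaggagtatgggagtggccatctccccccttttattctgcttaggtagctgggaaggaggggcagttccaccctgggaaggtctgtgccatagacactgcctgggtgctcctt

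Procr promoter (chr2:155750967-155751266, plus strand): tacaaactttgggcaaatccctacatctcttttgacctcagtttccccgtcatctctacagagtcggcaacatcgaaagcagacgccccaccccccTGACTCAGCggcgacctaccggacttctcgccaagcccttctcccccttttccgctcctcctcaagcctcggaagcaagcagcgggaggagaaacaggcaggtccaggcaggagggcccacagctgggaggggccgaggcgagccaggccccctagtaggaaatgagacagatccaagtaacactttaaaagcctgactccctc

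Procr fell from 69.4, 50.4 and 67.1 CPM in WT to 33.3, 36.2 and 33.4 CPM in Scnn1b-Tg, a log2 fold change of -0.89 ± 0.13 (SE, adjusted p = 0.0309). Among 29 tested genes of fatty acid synthesis and lipid droplets, 1 was called lower (Plpp1) and 1 higher (Awat1), with a median log2 fold change of -0.04. Other called genes with a known part in lipid use are given with them, a grouping made after their values were seen. Lpl, the lipase that frees fatty acids from lipoproteins and a hallmark of AMs, was at 3860, 3810 and 4420 CPM in WT and at 2750, 3030 and 2790 CPM in Scnn1b-Tg (log2 fold change -0.52 ± 0.07 SE, adjusted p = 0.0219). Lpl was the most abundant of the 46 genes and the 1 called member of the 30 genes of AM identity. Plpp1, a phosphatase of lipid messengers at the cell surface, was at 28.4, 23 and 21.8 CPM in WT and at 11.5, 16.5 and 12.6 CPM in Scnn1b-Tg (-0.90 ± 0.15 SE, adjusted p = 0.0434). Gk, glycerol kinase, was at 27.2, 26.7 and 24.6 CPM in WT and at 17.9, 14.5 and 15.8 CPM in Scnn1b-Tg (-0.64 ± 0.08 SE, adjusted p = 0.00975). Cd36, the fatty acid scavenger receptor, did not overlap but did not pass (-0.43, adjusted p = 0.108). Pparg pointed the other way, at 123, 121 and 122 CPM in WT and 160, 144 and 151 CPM in Scnn1b-Tg (0.33 ± 0.07 SE, adjusted p = 0.0799).

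Genes of the cytoskeleton and of membrane traffic formed a further share of the lower genes, a grouping made after their values were seen. Tubb2a and Tubb6, beta tubulins, had log2 fold changes of -0.72 ± 0.09 and -0.56 ± 0.09 (SE, adjusted p = 0.00975 and 0.042). Tubb2a lay at 163, 164 and 178 CPM in WT and at 97.2, 114 and 96.8 CPM in Scnn1b-Tg. Tpm4, an actin-binding tropomyosin, was at 282, 250 and 273 CPM in WT and at 165, 173 and 176 CPM in Scnn1b-Tg (-0.69 ± 0.09 SE, adjusted p = 0.0111). Ehd1, which recycles endocytosed membrane, changed by -0.67 ± 0.10 (SE, adjusted p = 0.0238). Carmil1, a regulator of actin capping protein, was at 0.358, 0.57 and 0.281 CPM in WT and at 0 in all Scnn1b-Tg libraries, at least 2.66-fold lower. All of these WT values lie near the floor, so the size of the Carmil1 difference cannot be read. The remaining lower genes were Fam181b, Gm20498, Piwil2, Lsm12, Serpinb9, Smim3 and Faap20, with log2 fold changes from -2.09 for Gm20498 to -0.50 for Faap20. Fam181b was at 31.1, 24.9 and 38.7 CPM in WT and at 12, 14.9 and 11.7 CPM in Scnn1b-Tg (adjusted p = 0.00975). Gm20498 is annotated across the exons of Cox16 and Synj2bp, so its value is uncertain.

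Chil4 had the largest rise in Scnn1b-Tg AMs. Its levels were 1.63, 1.39 and 1.02 CPM in WT and 23.4, 23.6 and 29.5 CPM in Scnn1b-Tg, a log2 fold change of 4.33 ± 0.75 (SE, adjusted p = 0.045). Every Scnn1b-Tg library was far above every WT library. Chil4 passed under 8 of the 22 alternatives, and the older quasi-likelihood method of edgeR gave an adjusted p of 0.0533. It lies on chromosome 3 (106201490 to 106219507, mm10) and is a close copy of Chil3, an abundant AM gene. Chil3 was at 10039, 10329 and 9545 CPM in WT and at 11503, 11904 and 14406 CPM in Scnn1b-Tg (log2 fold change 0.32 ± 0.17 SE, adjusted p = 0.453). Reads of the 2 genes may be split between them, so the Chil4 value is uncertain. Of 22 tested genes of alternative activation, Chil4 was the 1 called. At an unadjusted p of 0.05, 7 were higher and 2 lower (40.9% together, against 13.4% of all genes).

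The next higher genes are set together by known function, after their values were seen, and the related lists had no call by edgeR. At an unadjusted p of 0.05, 8 lysosome genes were higher and 2 lower, and 3 and 0 fatty acid oxidation genes. Together these were 23.3% and 12.5% of the lists, against 13.4% of all genes tested. The edgeR test called 0 of 43 lysosome genes and 0 of 24 fatty acid oxidation genes, whose medians were 0.08 and 0.05, and DESeq2 called 4 higher and 2 lower in the first and 1 higher in the second. Awat1, an acyltransferase that makes wax esters, was at 4.05, 2.85 and 14.6 CPM in WT and at 30.6, 38.1 and 64.5 CPM in Scnn1b-Tg, a log2 fold change of 2.44 ± 0.38 (SE, adjusted p = 0.0341). Within each library batch the Scnn1b-Tg pools were higher, by 2.99 in batch 1 and 1.73 in batch 2 on a log2 scale of CPM plus 0.5. Pdk4, the kinase that shuts off pyruvate dehydrogenase when fat is burned, was at 1.83, 1.47 and 3.72 CPM in WT and at 5.65, 6.92 and 10.2 CPM in Scnn1b-Tg (1.52 ± 0.26 SE, adjusted p = 0.045). Rragd, a Rag GTPase that recruits mTORC1 to the lysosome, was at 6.29, 6.54 and 6.03 CPM in WT and at 15.6, 12.7 and 16.3 CPM in Scnn1b-Tg (1.24 ± 0.15 SE, adjusted p = 0.00975). The 3 WT libraries were nearly equal for Rragd. Epas1, the hypoxia-inducible factor HIF-2 alpha, was at 35.4, 48.3 and 54.9 CPM in WT and at 98.6, 89 and 100 CPM in Scnn1b-Tg (1.02 ± 0.18 SE, adjusted p = 0.0449). The glycolysis and hypoxia list did not move with Epas1: 0 of 27 tested genes were called by edgeR or DESeq2. Its median log2 fold change was -0.07. At an unadjusted p of 0.05, 1 member was higher and 2 lower (11.1% together, against 13.4% of all genes). The Golgi genes Man2a2, a mannosidase of glycan trimming, and Gga2, a sorting adaptor, had log2 fold changes of 0.90 ± 0.13 and 0.47 ± 0.08 (SE, adjusted p = 0.0255 and 0.042).

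The lowest adjusted p of the comparison belonged to Pkdcc and Mlph. Pkdcc, a secreted protein kinase, was at 3.72, 3.42 and 8.36 CPM in WT and at 10.4, 23.4 and 19.4 CPM in Scnn1b-Tg, a log2 fold change of 1.46 ± 0.13 (SE, adjusted p = 0.00319). Mlph, melanophilin, which ties vesicles to actin motors, was at 4.08, 4.62 and 7.74 CPM in WT and at 11.1, 17.3 and 19.6 CPM in Scnn1b-Tg (1.33 ± 0.12 SE, adjusted p = 0.00319). Both were higher in batch 2 than in batch 1 in either genotype, and both passed under 19 of the 22 alternatives. Rasa4, which switches off Ras, was at 34.4, 34.3 and 48.4 CPM in WT and at 77.7, 98.7 and 92.3 CPM in Scnn1b-Tg (1.08 ± 0.13 SE, adjusted p = 0.00975). It passed under 18 of the 22 alternatives. Its exons overlap those of Gm15701.

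Immune receptors and adaptors among the higher genes were Ccr7, Adgre5 and Blnk. Ccr7, the chemokine receptor that leads cells to lymph nodes, was at 1.88, 1.85 and 2.33 CPM in WT and at 5.07, 5.8 and 4.17 CPM in Scnn1b-Tg (1.33 ± 0.22 SE, adjusted p = 0.042). Ccr7 also marks migrating dendritic cells. The other listed markers, of dendritic cells in general, had a summed level of 3.69, 2.71 and 4.06 CPM in WT and 2.6, 4.32 and 2.35 CPM in Scnn1b-Tg, with Flt3 at or under the floor. The part of migrating dendritic cells in the Ccr7 value was not tested. Blnk, an adaptor of immunoreceptor signalling, was at 1.06, 1.57 and 2.55 CPM in WT and at 4.01, 4.75 and 5.21 CPM in Scnn1b-Tg (1.35 ± 0.23 SE, adjusted p = 0.045). B cells use Blnk too, but the B cell marker Ms4a1 was at or under the floor in all 6 libraries. Adgre5, an adhesion receptor of leukocytes also called CD97, was at 3.24, 2.83 and 2.87 CPM in WT and at 7.92, 7.65 and 8.35 CPM in Scnn1b-Tg (1.46 ± 0.19 SE, adjusted p = 0.0166). Its exons overlap those of Ddx39. Wfdc17, a small secreted protein of activated macrophages, was at 7.06, 7.52 and 4.86 CPM in WT and at 14.6, 20 and 20.1 CPM in Scnn1b-Tg (1.52 ± 0.26 SE, adjusted p = 0.0449). The rest of the higher genes were 4930506C21Rik, Lrrc14b, Arhgap22, Speg, Arid3a, Plxdc1, Mxd4, Klhl24 and Ivns1abp, with log2 fold changes from 0.41 for Ivns1abp to 2.98 for 4930506C21Rik. Speg, Arid3a and Plxdc1 were at 8.22 ± 2.79, 24.5 ± 0.833 and 39.4 ± 1.56 CPM in WT and at 18.9 ± 1.54, 41.6 ± 3.28 and 63.7 ± 1.64 CPM in Scnn1b-Tg (mean ± SD, n = 3).

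Windows were matched for 16 of the 23 higher genes, of which 4 (25%) held the E-box CACGTG, the core letters of sites bound by lysosomal and Myc-family regulators, against 8.09% of all genes with a window. The 4 were Gga2, Ivns1abp, Mlph and Mxd4, a Max partner of that family. Of the 13 lower genes with a window, 1 (7.69%) held the E-box. The background, here and for the motifs above, includes genes that were not tested for expression. Whether any regulator of these sites acts on the 4 genes was not tested. The windows of Mlph and Ivns1abp, a Kelch protein, are shown with the E-box in capitals.

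Mlph promoter (chr1:90914850-90915149, plus strand): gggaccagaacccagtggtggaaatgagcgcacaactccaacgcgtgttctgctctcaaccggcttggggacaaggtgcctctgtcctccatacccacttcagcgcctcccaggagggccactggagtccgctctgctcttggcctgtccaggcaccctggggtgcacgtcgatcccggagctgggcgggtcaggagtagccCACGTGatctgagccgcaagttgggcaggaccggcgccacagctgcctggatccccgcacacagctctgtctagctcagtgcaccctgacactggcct

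Ivns1abp promoter (chr1:151344236-151344535, plus strand): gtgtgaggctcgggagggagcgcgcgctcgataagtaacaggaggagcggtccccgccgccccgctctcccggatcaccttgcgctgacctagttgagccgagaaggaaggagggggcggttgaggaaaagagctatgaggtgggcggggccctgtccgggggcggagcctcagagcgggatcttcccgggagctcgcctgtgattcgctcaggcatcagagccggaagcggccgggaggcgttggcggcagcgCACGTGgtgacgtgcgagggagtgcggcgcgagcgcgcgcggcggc

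Interferon-stimulated genes, the antiviral and antibacterial effectors that type I and type II interferons switch on, had the largest shift of any list of more than 12 genes, with 0 calls by edgeR and 9 by DESeq2, all of those higher. Of 49 tested genes, 47 had a fold change above 0 (95.9%, against 50.9% of all genes), and the median log2 fold change was 0.62. At an unadjusted p of 0.05, 26 were higher and 0 lower (53.1%, against 13.4% of all genes in either direction). The lowest p belonged to Ifitm3, which blocks virus entry, at 2.74, 2.12 and 7.82 CPM in WT and 9.7, 11.2 and 20.1 CPM in Scnn1b-Tg. Its log2 fold change was 1.46 ± 0.30 (SE, adjusted p = 0.0797). Oas1g, an enzyme of the double-stranded RNA response, was at 15.5, 16.3 and 38.6 CPM in WT and at 33.8, 44.8 and 52.3 CPM in Scnn1b-Tg (adjusted p = 0.0797). Irf7, the factor that amplifies interferon production, was at 14.7, 20.5 and 42 CPM in WT and at 55.6, 46.8 and 72 CPM in Scnn1b-Tg (1.10 ± 0.26 SE, adjusted p = 0.105). In all 3 genes the WT pool of batch 2 lay well above the WT pools of batch 1. The list's difference was smaller in batch 2: the median was 0.94 in batch 1, with 45 of 49 genes above 0, and 0.10 in batch 2, with 31 of 49. Without Tg 17 the median was 0.46 with 8 genes past the unadjusted threshold, without WT 18 it was 0.95 with 44, and without Tg 19 it was 0.53 with 18.

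Of 38 interferon-stimulated genes with a matched window, 24 (63.2%) held the letters of the interferon-stimulated response element on either strand, a GAAA followed after any 2 bases by a GAAA, against 3.99% of all genes with a window. The share describes the list and not these cells. The windows of the 2 genes with the lowest p are shown with the element in capitals.

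Ifitm3 promoter (chr7:141010695-141010994, minus strand): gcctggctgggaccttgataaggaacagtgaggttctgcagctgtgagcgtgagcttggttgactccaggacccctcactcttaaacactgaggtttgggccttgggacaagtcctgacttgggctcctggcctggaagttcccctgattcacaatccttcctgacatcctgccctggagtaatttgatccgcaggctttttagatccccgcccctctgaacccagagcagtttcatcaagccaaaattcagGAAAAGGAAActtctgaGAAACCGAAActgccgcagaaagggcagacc

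Oas1g promoter (chr5:120887564-120887863, minus strand): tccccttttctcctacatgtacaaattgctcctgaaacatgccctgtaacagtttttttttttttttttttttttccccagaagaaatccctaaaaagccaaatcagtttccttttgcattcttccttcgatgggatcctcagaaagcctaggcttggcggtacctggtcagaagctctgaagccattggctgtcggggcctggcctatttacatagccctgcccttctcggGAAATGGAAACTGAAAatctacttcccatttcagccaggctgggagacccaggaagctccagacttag

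Major histocompatibility complex class II genes, which present antigen to CD4 T cells, had their highest levels in a single pool. H2-Ab1 was at 7.68, 11.5 and 11.6 CPM in WT and at 53, 20.2 and 12.3 CPM in Scnn1b-Tg, and H2-Aa at 4.46, 5.58 and 6.11 CPM and at 29.7, 12.1 and 5.81 CPM. In both, Tg 17 was far above the other Scnn1b-Tg pools and Tg 19 lay near WT. Their log2 fold changes were 1.51 ± 0.43 and 1.62 ± 0.46 (SE, adjusted p = 0.171 and 0.165). Of 11 tested genes, edgeR called 0 and DESeq2 1. At an unadjusted p of 0.05, 5 were higher and 0 lower (45.5%, against 13.4% of all genes in either direction). Without Tg 17 none of them was higher at that threshold. Class II genes are also high in dendritic cells, whose marker levels are given above, and their part in these values was not tested.

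The NF-kB list holds the subunits of this inflammatory transcription factor and the inhibitors it induces. None of 24 tested genes was called by edgeR, while DESeq2 called 8 lower and 1 higher. At an unadjusted p of 0.05, 10 were lower and 1 was higher (45.8% together, against 13.4% of all genes). Ikbkg, the scaffold of the kinase that frees NF-kB, was at 146, 127 and 115 CPM in WT and at 99.6, 62.5 and 76.3 CPM in Scnn1b-Tg (log2 fold change -0.59 ± 0.11 SE, adjusted p = 0.0524). The exons of Ikbkg overlap those of G6pdx, a gene of the antioxidant list, and counting ignored strand, so the Ikbkg value is uncertain. Nfkbie, an inhibitor that NF-kB itself induces, was at 69.3, 69.9 and 55.3 CPM in WT and at 39.9, 50 and 37.2 CPM in Scnn1b-Tg (-0.61 ± 0.13 SE, adjusted p = 0.0856). The genotypes did not overlap for either gene, and the list median was -0.22 in batch 1 and -0.20 in batch 2. Tnf, a cytokine that this factor induces, was at 38.8, 28.8 and 45.3 CPM in WT and at 17, 35.1 and 32.7 CPM in Scnn1b-Tg. These ranges overlapped (-0.67 ± 0.15 SE, adjusted p = 0.0922). Csf1, the macrophage growth factor, was at 18.9, 14.8 and 32.4 CPM in WT and at 9.31, 10.2 and 10.3 CPM in Scnn1b-Tg (-1.22 ± 0.26 SE, adjusted p = 0.0797). Of 17 tested inflammatory cytokines, edgeR called 0 and DESeq2 called 2. At an unadjusted p of 0.05, 0 were higher and 2 lower (11.8%, against 13.4% of all genes in either direction). Some of the 17 were hardly present at rest. Csf3 was at 0 in all 6 medium libraries, and Il6 had at most 6 counts in WT and 3 in Scnn1b-Tg, under the floor. Such members could not show a resting difference, so these shares say little about them.

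The study described 12 genes in unstimulated cells of these mice by PCR, to verify differences in its own baseline RNA sequencing. Those cells were lysed soon after they had adhered and were not kept in medium for 12 h. That list was chosen on cells of this study and is not independent evidence of a direction. None of the 12 was called by edgeR, DESeq2 called 3, and the median log2 fold change was 0.65. At an unadjusted p of 0.05, 9 were higher and 2 lower (91.7% together, against 13.4% of all genes). Anpep, a surface aminopeptidase, was at 174, 204 and 261 CPM in WT and at 400, 359 and 368 CPM in Scnn1b-Tg (0.80 ± 0.16 SE, adjusted p = 0.0769). Igf1, a growth factor of repair, was at 54.9, 58.5 and 74.8 CPM in WT and at 112, 94.5 and 119 CPM in Scnn1b-Tg (0.70 ± 0.17 SE, adjusted p = 0.108). Neither gene overlapped between the genotypes. Arg1 and Ccl17, markers of type 2 immunity, were low and overlapped between the genotypes. Arg1 was at 0, 0 and 0.342 CPM in WT and at 0.0856, 0.894 and 2.39 CPM in Scnn1b-Tg, a log2 fold change of 2.42 ± 0.75 (SE, adjusted p = 0.189). Ccl17 was at 0, 0.285 and 0.1 CPM in WT and at 0.719, 0.247 and 0.934 CPM in Scnn1b-Tg (2.49 ± 0.72 SE, adjusted p = 0.169). WT values of both lay near or under the floor. The genes with a negative fold change were Mmp12, an elastase, and Cd86, a costimulatory molecule (-0.59 and -0.60, adjusted p = 0.221 and 0.249). The study lists Mmp12 among the markers raised in Scnn1b-Tg AMs at baseline, so its sign here was the opposite, without a call.

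Markers of other cells were compared because a difference in them could accompany any of these results. Epithelial markers did not overlap between the genotypes, with a summed level of 89.3 to 110 CPM in WT and 43.4 to 76.3 CPM in Scnn1b-Tg, and 0 of the 10 markers were at 0. Scgb1a1, the club cell secretory protein itself, was the largest part, at 71.7, 57 and 34.2 CPM in WT and 15.5, 29 and 13.9 CPM in Scnn1b-Tg (log2 fold change -1.34 ± 0.39 SE, adjusted p = 0.175). Without it the sums were 38.8, 48.9 and 55.1 CPM in WT and 27.9, 47.4 and 33 CPM in Scnn1b-Tg and overlapped. Neutrophil markers summed to between 16.8 and 20.2 CPM in WT, and to between 20 and 28.2 CPM in Scnn1b-Tg, with S100a9, Camp and Ngp at or under the floor. Monocyte and interstitial macrophage markers other than Chil3 were at 1.3 to 1.84 CPM in WT and 1.3 to 1.55 CPM in Scnn1b-Tg. The eosinophil markers Prg2, Ccr3 and Alox15 were at 0 in all 6 libraries. T or NK cell markers summed to 2.23 to 3.38 CPM in WT and 2 to 2.69 CPM in Scnn1b-Tg, B cell markers to 1.15 to 2.08 and 0.818 to 2 CPM, and endothelial or fibroblast markers to 7.05 to 8.11 and 8 to 8.69 CPM. The part of the epithelial difference in the lower genes was not tested. In bulk libraries, fewer cells of a type and less RNA per cell cannot be told apart.

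**Figure D3:**
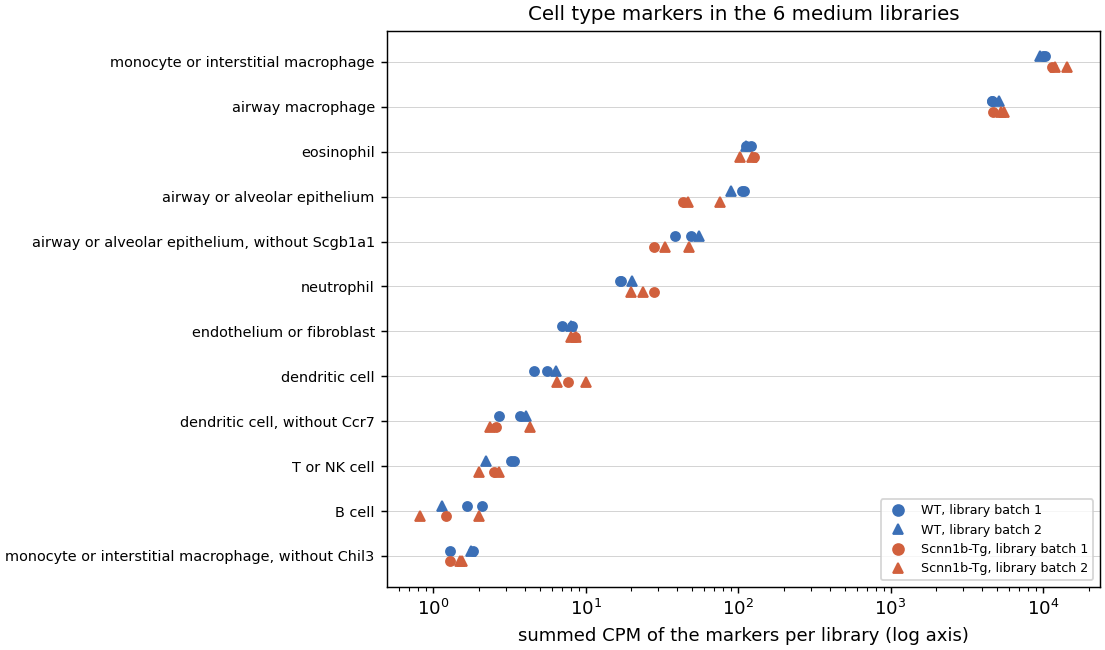
Summed CPM of each list of cell type markers in each of the 6 medium libraries, on a log axis, with WT in blue, Scnn1b-Tg in orange, circles for library batch 1 and triangles for batch 2. Epithelial markers lie at 89.3 to 110 CPM in WT and at 43.4 to 76.3 CPM in Scnn1b-Tg, while AM markers lie at similar levels, from 4650 to 5534 CPM.

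The LPS wells of the same 6 pools were used to see whether the resting differences were also present after stimulation. Genotypes differed in 7 of 13729 genes after LPS (0.051%), all higher in Scnn1b-Tg, and Pkdcc and Mlph were called in both states. Pkdcc was at 4.05, 3.52 and 7.76 CPM in WT and at 11, 24 and 19.7 CPM in Scnn1b-Tg after LPS, nearly the resting levels. Mlph was lower after LPS in all pools, at 0.859, 0.954 and 1.44 CPM in WT and 2.25, 3.48 and 2.96 CPM in Scnn1b-Tg. The test of the difference between the states (the interaction) called 0 genes by edgeR (0%) and 77 by DESeq2, with 817 at an unadjusted p of 0.05 and a lowest adjusted p of 0.271 by edgeR, so whether a genotype difference was particular to 1 state depended on the tool. The medium and LPS wells came from the same pools, and the genes below were picked on their medium values.

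After LPS, the values of the genotypes overlapped for several of the lower genes. Il1rn was at 294, 293 and 258 CPM in WT and at 209, 253 and 294 CPM in Scnn1b-Tg after LPS, and the genotypes overlapped (log2 fold change -0.19, adjusted p = 0.87). Cd14 was at 581, 561 and 584 CPM in WT and at 509, 674 and 611 CPM in Scnn1b-Tg (-0.03, adjusted p = 1). Fam181b stayed apart, at 56.8, 63 and 68.8 CPM in WT and 44.9, 35.3 and 45.9 CPM in Scnn1b-Tg (-0.63, adjusted p = 0.256). Among the higher genes, Awat1 was at 0.799, 0.954 and 3.83 CPM in WT and at 6.5, 8.24 and 19.1 CPM in Scnn1b-Tg (2.30, adjusted p = 0.0937). Chil4 was at 16.1, 1.67 and 25 CPM in the Scnn1b-Tg LPS libraries, and pool Tg 18, at 23.6 CPM in medium, lay within the WT range after LPS, which was 0.982 to 1.77 CPM. Over the 23 higher genes the median log2 fold change was 1.28 in medium and 0.74 after LPS, and over the 23 lower genes -0.74 and -0.19. Choosing genes by their difference in medium tends by itself to leave a smaller one after LPS. These medians therefore cannot show that the genotypes came closer.

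**Figure D4:**
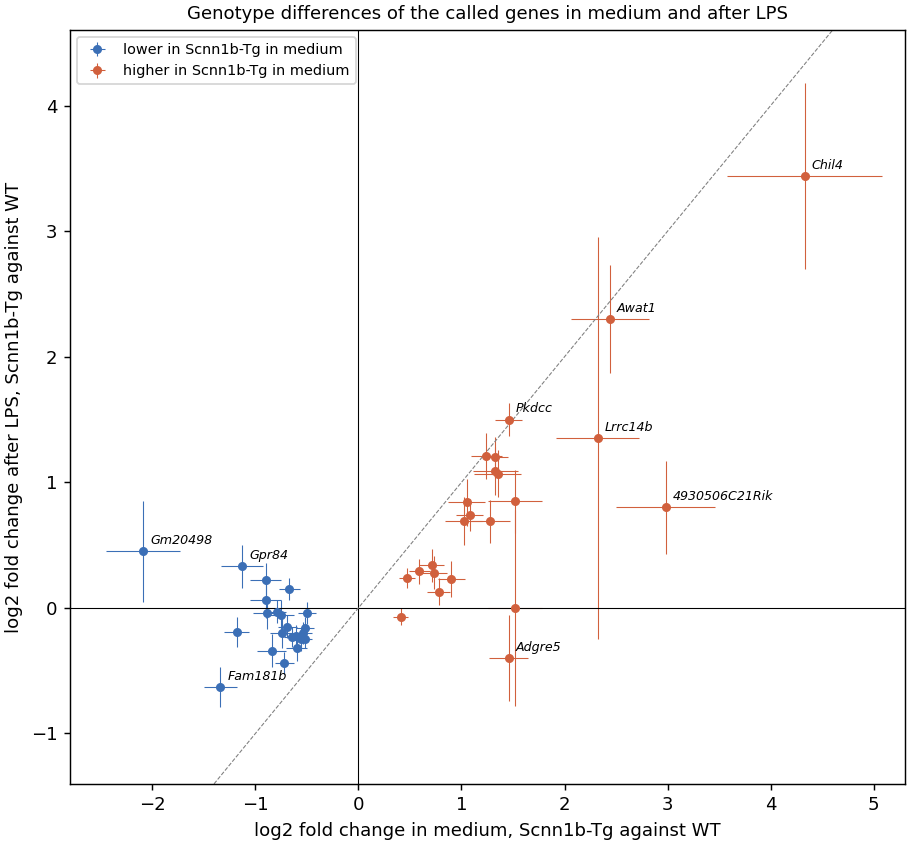
Log2 fold change of Scnn1b-Tg against WT after LPS (vertical axis) against that in medium (horizontal axis) for the called genes other than Carmil1, whose Scnn1b-Tg medium libraries were at 0, with bars of 1 SE and a dashed line of equality. Higher genes (orange) spread from near the line (Pkdcc, Awat1) to near 0 on the vertical axis (Arid3a 0.13, Pdk4 0.00, Ivns1abp -0.07) and to -0.40 for Adgre5, and lower genes (blue) lie between -0.63 (Fam181b) and 0.45 (Gm20498).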

How the data were processed

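RNA of airway macrophages was measured in 12 libraries, of which the 6 medium libraries are described here. The authors deposited estimated counts per gene: per the labels and the study's methods, SMART-Seq v4 libraries were sequenced as read pairs of 125 bp, aligned to mm10 with HISAT2 without strand, and quantified with StringTie against GENCODE, whose helper program turned coverage into whole numbers. Low values piled up in steps of about 2.5 counts per read (55.3% of values from 1 to 30 were 0 or 3 modulo 5, where 40.0% is an even share), so 1 read is worth more than 1 count. Symbols and positions came from a neighbouring GENCODE release on mm10, in which 20132 of 20551 IDs were found. Counting ignored strand and copies, and the exons of 16 of the 46 called genes overlap another gene.

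Groups came from the labels. Low genes were removed with filterByExpr (a count of at least 10 and a total of at least 15), and libraries were scaled by TMM. The quasi-likelihood test of edgeR 4.0.16 (R 4.3.3, newer method) was fitted to all 12 libraries with a term per group and for the library batch, as the study corrected for it, leaving 7 residual degrees of freedom. Tests were two-sided with Benjamini-Hochberg adjustment over 13729 genes. Levels are TMM-scaled CPM. The test was checked on simulated data. Alternatives were DESeq2 1.42.0, limma 3.58.1 with voom, other filters, scalings and designs, and leaving out each library or pool. The older quasi-likelihood method was added after seeing the data. Gene lists and members were chosen with earlier results of these data known. Named genes were all called genes without overlap (up to 25 per direction), called or lowest-p members of each list, the PCR genes, Tnf, Il1a and Il1b, and genes called after LPS. Others are named as list or marker members. Pools were taken as separate animals. The edgeR fit treats the medium and LPS libraries of a pool as independent, although their deviations correlated (r 0.14 to 0.34 over the 6 pools). The limma fit has the pool as a random effect (correlation 0.327). Floors cover counting error only. Replicate numbers 17 and 18 are shared by both genotypes and coincide with the batches (r of same-numbered deviations 0.17 and 0.11 in medium), which leaves too few pairs to say that a number pairs samples. Some gene windows were not used here.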

Additional observations from a re-analysis of the deposited data

Results flagged for a closer look

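Among the genes named here, for 4 the libraries of the genotypes did not overlap in medium and did not overlap in the opposite direction after LPS. These were Gm20498, Gpr84, Plpp1 and Pparg. The other genes tested were not searched for this pattern. Of all genes tested, 18.4% did not overlap in medium in either direction. The LPS difference exceeded the medium difference by 2.54 for Gm20498, 1.46 for Gpr84 and 1.12 for Plpp1 on the log2 scale, and for Pparg it was lower, at -0.44. Gpr84 was at 7.13, 6.19 and 5.55 CPM in WT and 2.12, 4.09 and 2.91 CPM in Scnn1b-Tg in medium, and at 84.2, 102 and 100 CPM in WT and 112, 133 and 130 CPM in Scnn1b-Tg after LPS. Plpp1 was at 98.2, 90 and 100 CPM in WT and 101, 120 and 124 CPM in Scnn1b-Tg after LPS, and Pparg at 30.4, 27.8 and 28.5 CPM and 27, 27.2 and 25.6 CPM. The edgeR interaction test did not call any of the 4, since the lowest adjusted p over all genes was 0.271.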

How the results depend on the processing

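Against 46 genes at rest, DESeq2 called 501 (278 higher, 223 lower), no filter on low counts 18, the 6 medium libraries alone 20, no batch term 28 and the replicate number as a block in place of the batch 77, of which 34 were among the 46. Leaving out a library or pool gave 1 to 41 genes, the lowest without both libraries of Tg 17. The other alternatives gave 32 to 64. After LPS, against 7, the counts were 146 with DESeq2, 4 with no batch term, 12 with the replicate block, 11 with limma voom and 2 to 18 when a library or pool was left out. For the interaction, against 0, DESeq2 called 77 and leaving out a library or pool gave 0 to 2. The cause of these differences was not tested, except that fewer libraries entered the fits with a library left out. No call at rest changed sign, and 17 of the 46 genes kept their call in 11 or more of the 22 alternatives and 0 in all of them. With the older quasi-likelihood method, 36 genes were called, 35 of them shared. Small effects in genes near the floor are limited by depth.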

Other observations

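Several gene groups of resting AMs had few or no calls. Of 43 tested lysosome genes edgeR called 0 and DESeq2 4 higher and 2 lower, and the median log2 fold change was 0.08. At an unadjusted p of 0.05, 8 were higher and 2 lower (23.3% together, against 13.4% of all genes tested). Ctsf and Lgmn, lysosomal proteases, had log2 fold changes of 0.61 ± 0.12 and 0.35 ± 0.08 (SE, adjusted p = 0.0648 and 0.0922, edgeR). Phagocytic and scavenger receptors had 0 calls of 32 by edgeR and 3 in each direction by DESeq2. At that unadjusted threshold 11 were higher and 4 lower (46.9% together). Mfge8, a bridge to dying cells, was at 195, 250 and 229 CPM in WT and at 377, 493 and 515 CPM in Scnn1b-Tg (0.91 ± 0.18 SE, adjusted p = 0.0642). Clec4n, a receptor for fungal sugars, was at 1644, 1265 and 1497 CPM in WT and at 990, 933 and 1018 CPM in Scnn1b-Tg (-0.58 ± 0.16 SE, adjusted p = 0.156). In cholesterol synthesis 0 of 25 genes were called by edgeR or DESeq2, and the median was -0.08. At the unadjusted threshold 0 were higher and 4 lower (16% together). In the complement list of 17, C5ar1 was the 1 call, while Cfb and C2, which build convertases, had log2 fold changes of 0.52 ± 0.11 and 1.91 ± 0.43 (SE, adjusted p = 0.0865 and 0.0901). At the unadjusted threshold 6 of that list were higher and 1 lower (41.2% together). Cell cycle genes had 0 calls of 38 by edgeR and 1 by DESeq2, and the median was 0.07. At the unadjusted threshold 3 were higher and 2 lower, 13.2% together, near the share of all genes.

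Genes called after LPS alone were Ccl5, Fscn1, Fyb, Lrpap1 and Vnn3. Ccl5, a chemokine for T cells, was at 1.18, 1.08 and 1.61 CPM in resting WT AMs and at 1.78, 3.12 and 2.05 CPM in resting Scnn1b-Tg AMs (log2 fold change 0.71 ± 0.17 SE, adjusted p = 0.114). After LPS it was at 33.8, 38.4 and 43.1 CPM in WT and 144, 204 and 181 CPM in Scnn1b-Tg (2.06, adjusted p = 9.14e-05). Fscn1, an actin bundler, and Vnn3, a pantetheinase, had resting log2 fold changes of 1.46 ± 0.33 and 3.47 ± 1.02 (SE, adjusted p = 0.0892 and 0.157), with Vnn3 near the floor in WT. Lrpap1, a chaperone of lipoprotein receptors, was at 147, 150 and 180 CPM in WT and at 193, 222 and 224 CPM in Scnn1b-Tg at rest (adjusted p = 0.0779).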
